A study of Mus musculus with 33 samples.

Results

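The cells described here were chosen from single-cell RNA-seq of mouse bone, brain, liver and lung by 5 genes that mark nonclassical monocytes. A cell was selected if it had at least 1 UMI (unique molecular identifier, a count of RNA molecules) for at least 3 of Ace, Cd300e, Adgre4, Treml4 and Eno3, and none for Vcan. The rule picked 852 of 55366 kept cells (1.54%), from 30 of the 32 samples taken after an intracardiac injection. These 6 genes were read to choose the cells, so their levels are given only as a description.

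After overnight labelling with the SAMENT substrate each of the 4 tissues was separated into a biotin positive and a biotin negative sort, and each of the 8 resulting groups held 4 samples. In SAMENT, tumour cells carry an enzyme that puts biotin on the cells they touch, so that the biotin negative sort stands for the rest of the tissue. All groups shared the intracardiac injection and the labelling. The sources used here do not give the injected tumour cells, the mouse strain or any allele, nor whether the samples of a group came from separate animals, and p-values therefore measure the spread between these samples. Samples held between 497940 and 44874529 UMIs, with medians of 2606 to 11313.5 UMIs per kept cell.

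Nonclassical monocytes, called patrolling monocytes, crawl along the inner wall of blood vessels and take up debris and damaged endothelial cells. They derive mostly from classical monocytes, which carry Ly6c2 and the chemokine receptor Ccr2, under the nuclear receptor Nr4a1 and the factor Cebpb, and they depend on the receptor Csf1r. The vessels of the lung hold many of them, and there they are known to meet circulating tumour cells.

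The label fitted part of the selected cells. Kupffer cells, the resident macrophages of liver sinusoids, are marked by Clec4f, Cd5l, Vsig4 and Timd4. Of the 852 selected cells 235 (27.6%) had UMIs of at least 2 of these genes. Another 113 cells (13.3%) drew over 2% of their UMIs from a list of 14 neutrophil genes. The remaining 504 cells (59.2%), from 27 samples, are called core cells below, and both cutoffs were chosen with the data in view. Among selected cells without the Kupffer genes, 491 took under 1% of their UMIs from the neutrophil list, 13 took 1 to 2%, 12 took 2 to 5%, and 63 took 20% or more, so few cells lay near that cutoff.

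Core cells carried the genes of nonclassical monocytes beyond the rule, which is given as a description with no test. Levels below are CPM, the UMIs of a gene in 1000000 UMIs of all genes after summing over the cells of a set, and classical monocytes are 9808 cells of the same samples with UMIs of at least 3 of Ly6c2, Ccr2, F13a1, Fn1 and Vcan and of at most 1 of the 5 markers. Nr4a1 stood at 911 CPM in core cells against 250 CPM in classical monocytes. Pou2f2, a transcription factor gene high in nonclassical monocytes, stood at 792 against 77.96 CPM. Cx3cr1, the fractalkine receptor, stood at 419 against 60.5 CPM. Spn (CD43, a classic surface marker of these cells) stood at 247 against 51.2 CPM, and Itgal, the integrin chain used for crawling, at 691 against 82.6 CPM. The Fc receptor Fcgr4 stood at 947 against 65.7 CPM, the sphingosine phosphate receptor S1pr5 at 74.8 against 1.25 CPM, and the ion transporter Slc12a2 at 259 against 1.92 CPM. Core cells were thus above the classical monocytes for each of these 8 genes, whereas Ly6c2 (63.0 against 1362 CPM) and Ccr2 (392 against 748 CPM), which helped to define the classical set, were lower. The 8 genes were picked from longer lists, and Cebpb, named in the design as a marker of these cells, is not among them.

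The Kupffer-marked cells met the rule through other genes than the core cells did. Ace had a UMI in 83.9% of core cells and in 4.26% of Kupffer-marked cells, and Eno3 in 57.9% and 11.5%. Cd300e went the other way, with 57.1% of core cells and 97.9% of Kupffer-marked cells. Treml4 was detected in 73.6% and 97.4%, and Adgre4 in 85.5% and 96.6%. Beyond the rule, the scavenger receptors Marco and Cd163 reached 4206 and 1556 CPM in the Kupffer-marked cells against 40.9 and 2.17 CPM in core cells, and C1qa, a complement subunit of tissue macrophages, reached 5415 against 186 CPM. Cx3cr1 stood at 8.43 CPM and Spn at 7.28 CPM in the Kupffer-marked cells, below the classical monocytes for each. S1pr5 was at 0.766 CPM, also below them. Other identity genes were not low: Fcgr4 stood at 1087 CPM and Itgal at 821 CPM, both above the core cells, and Nr4a1 (289 CPM), Pou2f2 (295 CPM) and Slc12a2 (45.2 CPM) lay between classical monocytes and core cells. Of the 8 identity genes, 5 were thus above and 3 below the classical monocytes, while the Kupffer genes went against the label.

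The neutrophil-rich cells held genes of both cell types. Beyond the rule, their Nr4a1 level was 522 CPM and their Cx3cr1 level 153 CPM, both between classical monocytes and core cells. The neutrophil list, which chose them, took 28.1% of their UMIs, against 0.288% in core cells and 4.27% in classical monocytes. S100a8, a calcium-binding alarmin, reached 104225 CPM against 961 CPM in core cells, and Camp, an antimicrobial granule peptide, 16104 against 116 CPM. They were also deeper, with a median of 11445 UMIs per cell against 3982 UMIs in core cells and 10437 in Kupffer-marked cells. No doublets were removed, and whether these cells are pairs of cells was not tested.

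**Figure D1:**
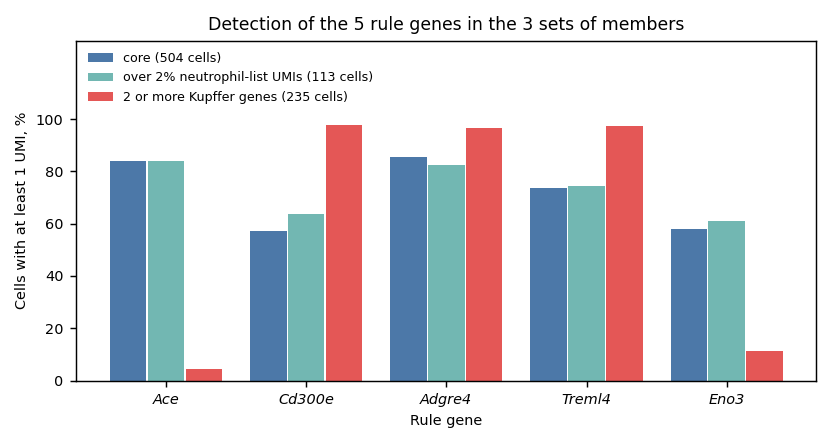
Share of cells (vertical axis, percent) with at least 1 UMI of each of the 5 rule genes, for core cells, neutrophil-rich cells and Kupffer-marked cells (bars). Ace was detected in 83.9% of core and 4.26% of Kupffer-marked cells, while core and neutrophil-rich cells had similar bars for every gene.

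Cells close to the rule's threshold fell on a continuum. Among kept cells without Vcan, 788 had exactly 2 of the 5 markers, 546 had 3, 227 had 4 and 79 had 5, and another 121 cells with at least 3 markers were left out because they had Vcan. Just outside the threshold, cells with 2 markers had 417 CPM of Nr4a1, 110 CPM of Cx3cr1 and 618 CPM of Fcgr4, and just inside it cells with 3 markers had 469, 137 and 916 CPM. Cebpb did not rise across the threshold, with 1961 CPM in cells with 2 markers and 1954 CPM in cells with 3. The cells left out for Vcan had 650 CPM of Nr4a1 and 217 CPM of Cx3cr1, together with 651 CPM of Ccr2 and 482 CPM of F13a1. Cd5l stood at 1272 CPM in cells with 2 markers and 2340 CPM in cells with 3, so the Kupffer genes lay on both sides of the threshold.

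Most Kupffer-marked cells came from 1 sample. Biotin positive liver replicate 2 held 211 selected cells, 20.4% of its kept cells, and all 211 were Kupffer-marked, with Ace in 3.32% and Cd300e in 98.1% of them. The other 24 Kupffer-marked cells were spread over 8 samples. Results below are therefore given for all selected cells and again for core cells.

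The first question was whether the biotin sort held more or fewer of these cells in any tissue. In the biotin negative samples the selected cells made up 1.59%, 0.506%, 0.981% and 0.599% of kept cells in bone (mean 0.918% ± 0.491, SD, n = 4). The 4 brain samples had 0.830%, 0.962%, 2.37% and 0.770% (1.23% ± 0.761). The liver samples had 1.25%, 0.602%, 1.41% and 0% (0.816% ± 0.647). The lung samples had 2.28%, 0.953%, 2.11% and 1.14% (1.62% ± 0.674). The 0 in biotin negative liver replicate 4 was 0 of 1268 cells, which allows a share of up to 0.237%, and this floor covers counting error only. The ranges of the 4 tissues overlapped.

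In the biotin positive samples the shares were 2.44%, 0.0978%, 0.161% and 1.16% in bone, a mean of 0.964% ± 1.10, so that 2 samples were high and the others near 0. They were 0.543%, 0.296%, 0.645% and 0.299% in brain (0.446% ± 0.176), from 2 or 3 selected cells per sample. In liver they were 3.11%, 20.4%, 1.48% and 0% (6.24% ± 9.50), the last being 0 of 94 cells. In lung they were 1.82%, 0.211%, 1.40% and 1.77% (1.30% ± 0.750).

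As a share of kept cells, the sorts separated in brain. All 4 biotin positive brain samples (0.296% to 0.645%) lay below all 4 biotin negative ones (0.770% to 2.37%), a difference of -0.786 percentage points with a two-sided exact permutation p of 0.0286, the smallest that 4 against 4 samples can give, and an adjusted p of 0.114 over the 4 tissues. The difference was also seen in core cells, at -0.653 percentage points (exact permutation p = 0.0286, adjusted p = 0.114), where 2 of the positive samples held none. Of the monocytes (selected plus classical), however, the selected cells made up 10.5% ± 4.26 in biotin positive brain and 5.88% ± 2.68 in biotin negative brain (SD, n = 4), with an exact permutation p of 0.171, and core cells made up 2.80% against 3.88% of monocytes, so the lower share of kept cells did not come with a clear change within the monocytes. After adjustment no share differed between the sorts.

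In bone the difference was 0.0455 percentage points (exact permutation p = 0.943) and in lung -0.321 (exact permutation p = 0.514). Core cells made up 0.873% ± 0.611 of biotin positive lung against 1.45% ± 0.718 of the negative sort (SD, n = 4), with overlapping ranges. The positive sample was higher in 0 of 4 same-numbered lung pairs. In bone, core cells made up 0.715% against 0.765%, with the positive sample higher in 2 of 4 pairs. In liver it was 5.42 percentage points with an exact permutation p of 0.229. Without the Kupffer-marked cells the liver difference was 0.0922 percentage points (exact permutation p = 1), so its size came from those cells. Among liver monocytes the selected cells took 37.7% ± 45.2 in the biotin positive sort (n = 3, the replicate with 94 cells having too few monocytes) and 2.66% ± 1.84 in the negative sort (n = 4), with an exact permutation p of 0.0286 and an adjusted p of 0.114. The values were 14.0%, 89.8% and 9.24% against 3.42%, 3%, 4.22% and 0%, with no overlap. Without the Kupffer-marked cells that difference was 2.87 percentage points with an exact permutation p of 0.571.

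Across tissues, the lung held the most core cells. Core cells made up 2.17%, 0.595%, 1.89% and 1.14% of kept cells in the 4 biotin negative lung samples, a mean of 1.45% ± 0.718 (SD, n = 4). The means were 0.765% ± 0.465 in bone, 0.773% ± 0.397 in brain and 0.634% ± 0.468 in liver. Set against the mean of the other tissues, lung was higher by 0.725 percentage points in core cells, with a two-sided exact permutation p of 0.0242 over 1820 assignments and an adjusted p of 0.0967. For all selected cells the difference was 0.632 percentage points (exact permutation p = 0.104, adjusted p = 0.415), so neither passed after adjustment. Of monocytes, core cells took 8.49% ± 5.00 in lung, 3.56% ± 1.26 in bone, 3.88% ± 1.95 in brain and 2.13% ± 1.42 in liver.

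**Figure D2:**
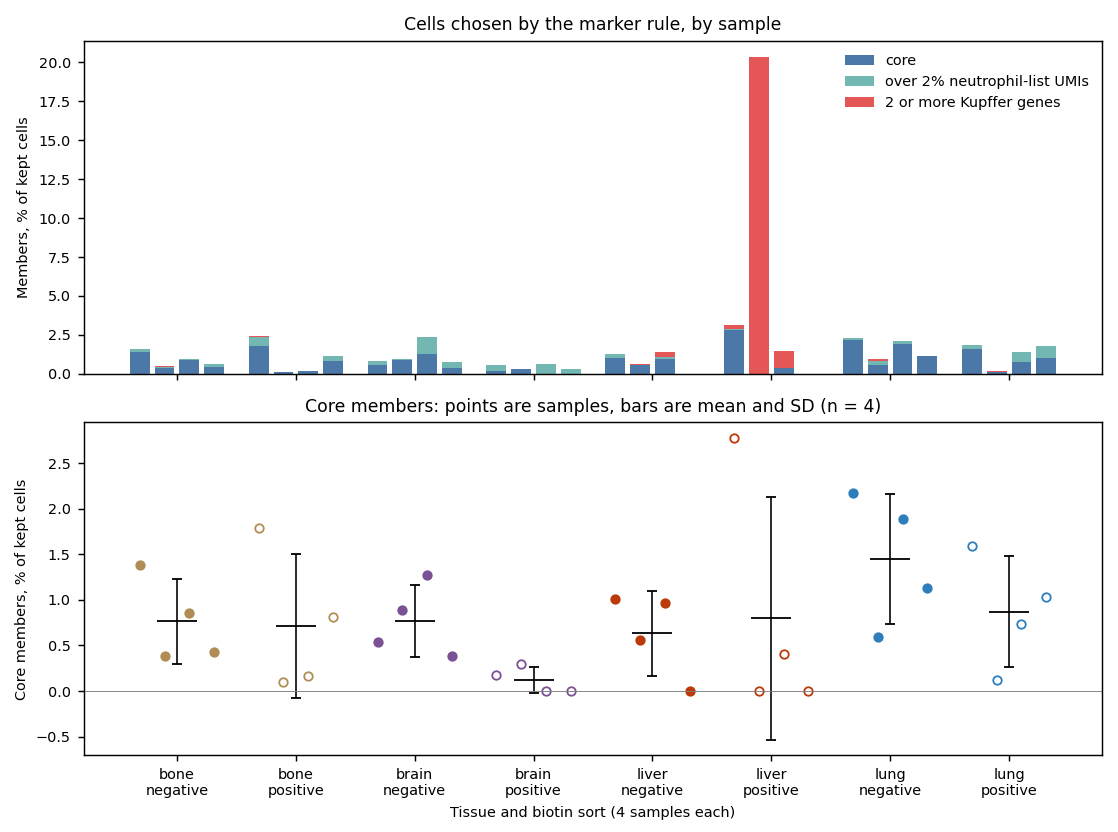
Share of kept cells (vertical axes, percent) in each of the 32 samples, by tissue and biotin sort. The upper panel stacks core, neutrophil-rich and Kupffer-marked cells for each sample as bars, and the lower panel shows core cells as points with the mean and SD of 4 samples; biotin positive liver replicate 2, at 20.4%, is the tall bar.

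The makeup of the selected cells differed between groups. Neutrophil-rich cells were 8.28% of the selected cells of biotin negative lung, 12.7% of liver, 16.2% of bone and 38.0% of brain. The summed neutrophil list ranged from 3271 to 48272 CPM in the selected cells of biotin negative lung samples and from 91646 to 230873 CPM in those of bone, with no overlap between these groups. Brain, from 23801 to 324565 CPM, and liver, from 28849 to 97936 CPM, both overlapped with lung. In core cells, where the list itself set the cutoff, it ranged from 2309 to 4694 CPM in lung, 2268 to 4293 in bone, 1974 to 4351 in brain and 1829 to 4202 in liver.

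Gene levels were compared between tissues on the UMIs summed over the selected cells of each sample with at least 10 of them. In lung, a small number of genes passed, and Nfkbia and Rel of the NF-kB response were among the higher ones. NF-kB is a family of transcription factors that immune cells switch on within minutes of a danger signal, and Nfkbia, its inhibitor, and Rel, a subunit, are themselves among its targets. With edgeR's quasi-likelihood test across 3841 genes, lung differed from the mean of the other 3 biotin negative tissue groups in 27 genes (0.703%), of which 18 (0.469%) were higher and 9 (0.234%) lower. DESeq2 called 18 higher and 26 lower, so the balance of directions depends on the tool. In core cells, across 1786 genes, 15 (0.84%) differed, of which 14 (0.784%) were higher and 1 (0.056%) lower. Of the 27 genes, 20 were also tested in core cells, and 6 passed in both: Nfkbia, Rel, Pim1, Dusp5 and Traf1 higher, and Txnip lower. The numbers moved with single biotin negative samples. The 27 became 0 without lung replicate 1, 1 without lung replicate 3, 2 without bone replicate 4 or liver replicate 1, 3 without brain replicate 1, 6 without lung replicate 4, 8 without brain replicate 4, 12 without lung replicate 2, 13 without bone replicate 2, 17 without bone replicate 1 and 57 without brain replicate 2. In core cells the 15 became 0 without lung replicate 1, 4 without bone replicate 1, 6 without liver replicate 1, 7 without bone replicate 4 or lung replicate 3, and 29 without liver replicate 3.

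The starts of Nfkbia, Rel and Dusp5 are shown because they hold a match to the NF-kB-like pattern given below. Pim1, Traf1 and Txnip have no match to that pattern in this window, and other forms of the NF-kB site were not searched. These sequences are RefSeq promoters of build GRCm38.p6, 250 bases before to 50 bases after the annotated start, written 5′ to 3′ in the direction of the gene, with the match in capitals. Nfkbia (ENSMUSG00000021025) lies on the minus strand at chr12:55492598-55492897, Rel on the minus strand at chr11:23770920-23771219 and Dusp5 on the plus strand at chr19:53528895-53529194.
Nfkbia: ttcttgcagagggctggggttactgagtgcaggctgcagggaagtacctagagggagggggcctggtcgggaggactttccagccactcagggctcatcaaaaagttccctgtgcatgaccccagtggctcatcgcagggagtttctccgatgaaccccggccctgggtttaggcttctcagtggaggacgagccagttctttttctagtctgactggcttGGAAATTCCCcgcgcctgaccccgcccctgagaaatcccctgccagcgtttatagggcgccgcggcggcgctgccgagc
Rel: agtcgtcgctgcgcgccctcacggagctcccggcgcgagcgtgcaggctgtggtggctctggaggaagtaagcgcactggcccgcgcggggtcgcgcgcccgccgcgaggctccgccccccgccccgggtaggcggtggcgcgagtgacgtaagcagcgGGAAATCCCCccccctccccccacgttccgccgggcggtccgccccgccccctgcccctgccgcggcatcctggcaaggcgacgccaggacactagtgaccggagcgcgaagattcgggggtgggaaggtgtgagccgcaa
Dusp5: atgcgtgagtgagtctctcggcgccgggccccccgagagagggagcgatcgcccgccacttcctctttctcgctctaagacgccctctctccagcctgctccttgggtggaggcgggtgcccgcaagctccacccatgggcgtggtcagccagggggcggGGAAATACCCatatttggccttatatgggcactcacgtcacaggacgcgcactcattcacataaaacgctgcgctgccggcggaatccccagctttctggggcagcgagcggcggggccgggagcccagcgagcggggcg
The motif searched was GGG, then any 2 bases, then TTTCC, on both strands, chosen after the lung genes had been seen. In all 3 sequences it is read on the opposite strand, 29 bases before the start of Nfkbia, 91 before that of Rel and 90 before that of Dusp5. It occurs in 535 of 32851 promoters of this length (1.63%). Of the 27 genes higher in lung in either fit, 23 had a promoter in the RefSeq table and 4 held the motif, the other being the chemokine gene Cxcl3. A match describes these letters and is not a shown binding site.

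Nfkbia had 1714, 891, 1293 and 1272 CPM in the core cells of the 4 biotin negative lung samples. It had 445, 358, 535 and 566 CPM in bone and 205, 494, 638 and 734 CPM in brain. The 3 liver samples with enough core cells had 261, 705 and 793 CPM. All 4 lung samples lay above all 11 others. Lung and the other samples did not overlap, in either direction, for 7 of the 1786 genes tested in core cells (0.392%). The log2 fold change of lung against the other tissues was 1.29 (SE 0.249, edgeR adjusted p = 0.0207) in core cells and 1.22 (SE 0.198, edgeR adjusted p = 0.00942) in all selected cells. Without lung replicate 1 these were 1.11 (adjusted p = 0.264) and 1.09 (adjusted p = 0.0593), so the size stayed and the call was lost. Biotin positive lung replicate 1, which was not in the core test, had 1585 CPM. It shares its number with the biotin negative sample whose removal lost the call, and is not shown to be independent of that sample.

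Rel had 799 CPM in lung replicate 1 and 274, 258 and 276 CPM in the other lung samples. Bone had 133, 102, 134 and 224 CPM, brain 128.2, 124, 227 and 122, and liver 100.5, 86.4 and 162. The lowest lung sample was thus just above the highest of the others, and replicate 1 stood far above both. The log2 fold change in core cells was 1.57 (SE 0.293, edgeR adjusted p = 0.0207) and 0.93 without that sample (adjusted p = 0.264). The biotin positive lung sample with the same replicate number, likewise not shown to be independent, had 820 CPM.

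Cd83, a surface protein of activated antigen-presenting cells, had 816, 384, 289 and 202 CPM in lung core cells. It reached 247 CPM in bone replicate 3 and ranged from 13.4 to 180 CPM in the other samples, so the lowest lung sample overlapped with bone. Its log2 fold change was 2.24 (SE 0.393, edgeR adjusted p = 0.0172), and 1.63 (adjusted p = 0.264) without lung replicate 1.

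Pim1, a serine/threonine kinase gene induced by cytokines, had 1103, 1042, 999.7 and 572 CPM in lung core cells. The other tissues ranged from 121 to 707 CPM, and the brain samples with 581, 664 and 707 CPM overlapped with lung replicate 4. The log2 fold change in all selected cells was 1.27 (SE 0.213, edgeR adjusted p = 0.00942).

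Dusp5, which encodes a nuclear phosphatase of the kinase ERK, had 445, 493, 319 and 283 CPM in lung core cells. Brain came closest, with 51.3, 359, 340 and 332 CPM, whereas bone ran from 25.6 to 206 CPM and liver from 20.1 to 100.8 CPM. Traf1, an adaptor of tumour necrosis factor receptors, had 391, 95.9, 155 and 289 CPM in lung and at most 142 CPM elsewhere, so that lung replicate 2 lay within the range of the others. Their log2 fold changes in core cells were 1.49 and 1.86, both with an edgeR adjusted p of 0.0304. Alternatives below are another setting or a left-out sample. In core cells the Dusp5 call was lost in 7 of 17 alternatives and the Traf1 call in 6 of 17. In all selected cells they were lost in 6 and 11 of 24.

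Txnip, which encodes a thioredoxin-binding protein that limits glucose uptake, was the gene that fell in both fits. It had 112, 54.8, 92.8 and 141 CPM in lung core cells. Bone had 422, 333, 237 and 472 CPM, brain 205, 236, 255 and 140, and liver 422, 187 and 411, so that brain replicate 4 lay level with the highest lung sample. The log2 fold change in core cells was -1.54 (SE 0.270, edgeR adjusted p = 0.0172), and -1.59 without lung replicate 1, where the call was lost (adjusted p = 0.1535).

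**Figure D3:**
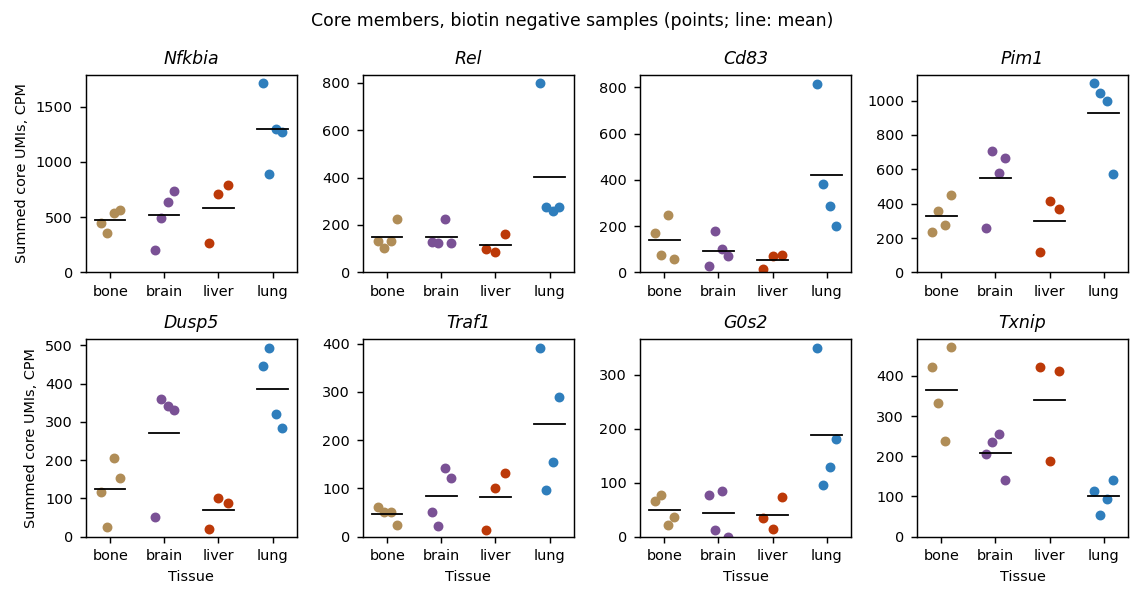
Level of 8 genes in core cells of the biotin negative samples (vertical axes, CPM of summed UMIs, each from 0), by tissue; points are samples and lines are means. Lung points lie above the rest for Nfkbia and Rel and low for Txnip, and the highest lung point for Rel, at 799 CPM, is replicate 1.

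Beside Cd83, another 8 genes rose in lung core cells that had not passed in all selected cells. The chemokine gene Ccl4 rose by 2.61 (SE 0.571, edgeR adjusted p = 0.0326) and Ptgs2, the inducible prostaglandin synthase, by 2.87 (SE 0.656, edgeR adjusted p = 0.0471) on the log2 scale. The Ccl4 call was lost in 11 of 17 alternatives (values 2.05 to 3.35) and the Ptgs2 call in 11 of 15 (2.61 to 3.86). G0s2, an inhibitor of the lipase that empties fat droplets, rose by 2.20 (edgeR adjusted p = 0.0207), with 350, 96.0, 129 and 182 CPM in lung and at most 85.0 CPM in the other samples. The myeloid receptors Trem1 and Clec4e rose by 1.33 and 1.29, the pseudokinase gene Trib1 by 1.18, Ifrd1, a transcription co-regulator, by 2.06, and the cyclin-dependent kinase subunit Cks2 by 1.39, with edgeR adjusted p-values from 0.0275 to 0.0477.

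In all selected cells 13 further genes rose that did not pass, or were not tested, in core cells. Il1b, the interleukin 1 beta gene, had 4627, 4198, 2427 and 1433 CPM in the lung samples and rose by 1.86 (SE 0.406, edgeR adjusted p = 0.0397). In core cells its value was 1.72 with an edgeR adjusted p of 0.0569. Nr4a1 had 1200, 1167, 1472 and 1164 CPM in lung, against 311 to 586 CPM in bone, 422 to 1136 in brain and 304 to 691 in liver, and rose by 1.05 (SE 0.237, edgeR adjusted p = 0.0406). In core cells Nr4a1 reached 1545 CPM in brain replicate 3, above 3 of the 4 lung samples, and its value was 0.95 with an edgeR adjusted p of 0.141. Dusp2 and Gadd45b, genes of stress and kinase signalling, rose by 1.23 and 1.42 (edgeR adjusted p = 0.0425 and 0.0497), and Ppdpf by 1.00 (edgeR adjusted p = 0.0406). The Il1b call was lost in 13 of 24 alternatives. Those of Nr4a1, Dusp2, Gadd45b and Ppdpf were each lost in 16 of 24, and the value of Ppdpf fell as low as 0.562.

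Of the 9 genes that fell in all selected cells of lung, Ngp, Camp, Lcn2 and Ltf are neutrophil granule genes. Ltf, which encodes lactoferrin, had 33.6 to 72.1 CPM in lung and 724 to 4690 CPM in bone. All 4 belong to the list of 14 that set the core cutoff, so core cells give no separate test of them.

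Most genes of the list of 26 NF-kB and cytokine genes did not pass. In core cells 13 were tested and 4 rose (Nfkbia, Cd83, Ccl4 and Ptgs2), where 0.784% of all 1786 genes were called higher. The call was lost in 3 of 17 alternatives for Nfkbia, 1 of 17 for Cd83, 11 of 17 for Ccl4 and 11 of 15 for Ptgs2. All 13 had a log2 fold change above 0 and an unadjusted p below 0.05, and their median was 1.29 against -0.0149 over all genes tested. Over all 1786 genes 169 had an unadjusted p below 0.05 in either direction. Genes that did not pass ran from 1.02 for Nfkbiz to 2.22 for Cxcl2, the neutrophil-attracting chemokine gene, and included Sod2 (1.08), Tnfaip3 (1.16) and Socs3 (1.16). In all selected cells 22 were tested, 2 rose (Nfkbia and Il1b) where 0.469% of all genes were called higher, 21 were above 0 and the median was 1.26 against 0.00831 over all genes. Summed over the list, core cells had 6168 to 13819 CPM in lung against 2118 to 4018 in bone, 1999 to 5599 in brain and 878 to 5099 in liver, with no overlap between lung and the rest. In all selected cells the lowest lung sample had 7187 CPM and brain reached 8690 CPM, so these overlapped.

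Genes of nonclassical identity did not pass in lung core cells, to be read against the same 169 of 1786 genes. Of 12 identity regulators 0 passed with edgeR, 3 had an unadjusted p below 0.05 and the median log2 fold change was 0.00529, with Pou2f2 at 0.20, Cebpb at 0.57, Klf2 at -0.49 and Ets2 highest at 1.89 (edgeR adjusted p = 0.0569). Of 20 surface and survival genes tested 0 passed with edgeR, 6 had an unadjusted p below 0.05, 16 were above 0 and the median was 0.362, with Slc12a2 at 0.96, Spn at 0.90 and Cx3cr1 at -0.26. Of 19 immediate early and heat shock genes, which dissociation of a tissue can also induce, 0 passed with edgeR, 5 had an unadjusted p below 0.05, 13 were above 0 and the median was 0.346. In all selected cells, where 404 of 3841 genes had an unadjusted p below 0.05, 1 of 12 identity regulators (Nr4a1) and 1 of 22 surface and survival genes (the survival gene Bcl2a1b) rose. There 3 and 10 of the 2 lists had an unadjusted p below 0.05, 8 and 20 were above 0, and the medians were 0.312 and 0.609. The part of dissociation in the lung values was not tested.

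Detection was also compared after depth was made equal. With each core cell thinned to 2000 UMIs, Nfkbia had a UMI in 85.3% of 143 lung cells, 50.0% of 84 bone cells, 52.1% of 48 brain cells and 47.5% of 61 liver cells. By sample these shares ran from 80.4% to 89.2% in lung, 40.0% to 60.0% in bone, 20.0% to 71.4% in brain and 28.1% to 78.6% in liver, with no overlap between lung and the rest. Without thinning and over these cells, the shares were 94.4%, 66.7%, 83.3% and 70.5%. Il1b was found in 77.6% of lung, 39.3% of bone, 54.2% of brain and 31.1% of liver core cells, against 6.58% to 9.94% of B cells of the same samples, thinned likewise, which should lack it. By sample it ran from 73.0% to 82.1% in lung and reached at most 69.2% elsewhere. The pooled shares are a description and were not tested. B cells use Nfkbia, Cd83 and Rel themselves and so give no background value for them.

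Genes called in lung were common in classical monocytes of the same samples, with 1595 of 10806 genes passing (14.8%). Bone had more, with 2393 of the same 10806 genes passing, while brain had 155 and liver 0. The log2 fold change of lung against the other tissues in classical monocytes was 1.66 for Nfkbia (edgeR adjusted p = 0.0125), 1.38 for Rel (0.00605), 2.62 for Cd83 (0.0292), 2.53 for Il1b (0.0234) and -1.15 for Txnip (0.0411). The difference of the tissue contrast between core cells and classical monocytes was then tested in edgeR with the sample as a block. Of the 13 NF-kB and cytokine genes 0 passed, with unadjusted p-values from 0.0185 for Ccl4 (difference 1.48, edgeR adjusted p = 0.199) to 0.990, while over all 1786 genes 36 passed (2.02%). A missed threshold does not show that both cell types changed alike.

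**Figure D4:**
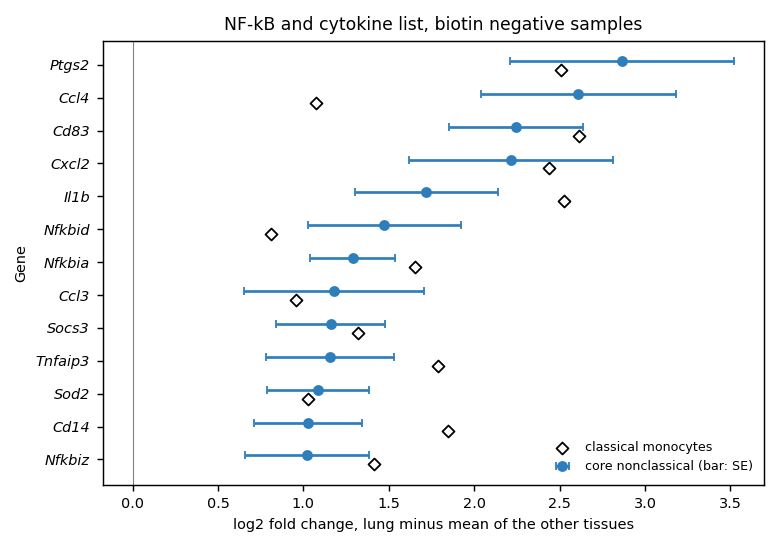
Log2 fold change of lung against the mean of the other tissues (horizontal axis) for the 13 tested genes of the NF-kB and cytokine list (vertical axis) in biotin negative samples. Filled points with SE bars are core cells and open diamonds are classical monocytes; every point lies above 0, from 1.02 for Nfkbiz to 2.87 for Ptgs2 in core cells.

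Among the 36 genes, Spn had a log2 fold change of 0.90 in core cells and -1.14 in classical monocytes, a difference with an edgeR adjusted p of 0.00939. Ccr2, which also helped to define the classical set, had -1.06 in core cells and 0.29 in classical monocytes (edgeR adjusted p = 0.0309). The complement genes C1qa and C1qb differed by -3.38 and -3.57. Unlike the core cells, the classical set had no cutoff on Kupffer or neutrophil genes, and the part of this in the differences was not tested. In bone 224 of the 1786 genes (12.5%) passed the test of the difference. There Cx3cr1 had a value of 0.76 in core cells and -1.35 in classical monocytes (edgeR adjusted p = 0.0206), and the antigen presentation chaperone gene Cd74 had -0.26 against -2.85. In brain and liver 0 genes passed with edgeR, with 76 and 189 at an unadjusted p below 0.05.

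Fewer genes passed in liver, bone and brain. In all selected cells 3 genes were higher in liver (0.0781%): Cfb, a complement factor, Adamdec1, a macrophage metalloprotease, and the antibody light chain Iglc1. Cfb had 93.3, 45.6 and 62.1 CPM in the biotin negative liver samples and at most 19.2 CPM in the biotin negative samples of other tissues (log2 fold change 3.10, SE 0.579, edgeR adjusted p = 0.0273). Iglc1 stood at 28405 CPM in liver replicate 3 and at 0 and 4.06 CPM in the other liver samples, so 1 sample made its value. Adamdec1 had 0, 159 and 341 CPM. Kupffer-marked cells were 6 of the 79 selected cells of biotin negative liver, and without them the number of genes passing in liver was 0. It was 45 without lung replicate 2, 40 without liver replicate 1, 1 without bone replicate 1, bone replicate 4, brain replicate 3 or brain replicate 4, and 0 without liver replicate 3.

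In core cells 1 gene differed in liver (0.056%), Trem1, an amplifier of inflammatory signals. It had 13.4, 14.4 and 14.7 CPM in liver, at or near the worth of a single UMI in replicates 2 and 3, against 50.03 to 82.6 CPM in bone, 85.0 to 180 in brain and 97.9 to 158 in lung, with no overlap, as for 16 of the 1786 genes (0.896%). Its log2 fold change was -2.76 (SE 0.472, edgeR adjusted p = 0.0249). The call held in 7 of 17 alternatives. It was lost with DESeq2 (adjusted p = 0.0707) and without bone replicate 3 or 4, brain replicate 2 or 4, any of the 3 liver replicates, or lung replicate 1 or 4, with adjusted p-values up to 0.0826 and values from -2.85 to -2.68 over the alternatives. The number of genes passing in liver core cells was 9 without liver replicate 1. Liver core cells also had 355, 259 and 955 CPM of C1qa, which was absent or low in most other biotin negative samples but reached 333 CPM in bone replicate 2 and 314 in brain replicate 2 (log2 fold change 3.13, edgeR adjusted p = 0.125). Kupffer genes were not at 0 in them: the hepatocyte and Kupffer list, part of which set the cutoff, summed to 6.70, 115 and 294 CPM at its lowest, median and highest in liver against at most 27.4 CPM in the other biotin negative samples, and its part in the C1qa values was not tested. The 6 tested MHC class II genes, which present antigen to CD4+ T cells, had a median log2 fold change of 0.884 with all 6 above 0, 2 at an unadjusted p below 0.05 (152 of all 1786 genes) and 0 passing with edgeR, H2-DMa being closest at 1.26 (edgeR adjusted p = 0.0546).

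In bone 1 gene was called in all selected cells (0.026%), the mitotic gene Ube2c, with 92.1, 0, 277 and 435 CPM, so replicate 2 had none. The number was 0 without bone replicate 4 and 3 without brain replicate 4 or liver replicate 1. In bone core cells 0 genes passed with edgeR and 0 with DESeq2, with 138 at an unadjusted p below 0.05. Values of the immediate early list in bone core cells had a median of -0.456, with 2 of 19 genes above 0, and those of the NF-kB list a median of -0.593, with 2 of 13 above 0. Nr4a1 had 289, 333, 690 and 684 CPM in bone core cells (log2 fold change -0.98, edgeR adjusted p = 0.477) and Cx3cr1 623, 896, 803 and 307 CPM (0.76, edgeR adjusted p = 0.639). In brain 0 genes passed in either fit with edgeR and with DESeq2, with 318 and 56 at an unadjusted p below 0.05. In all selected cells the number for brain was 30 without brain replicate 2, 17 without liver replicate 1 and 1 without bone replicate 4.

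Between the biotin sorts, no gene passed in the selected cells of any tissue tested when samples were not blocked by replicate number. The edgeR test over 3841 genes gave 0 calls (0%) in bone (2 positive against 4 negative samples), 0 in liver (3 against 3) and 0 in lung (3 against 4), with 131, 418 and 124 genes at an unadjusted p below 0.05, and DESeq2 gave 0 in each. The mean over these tissues and the difference between tissues gave 0 as well, with 225 and 236 at an unadjusted p below 0.05. With a replicate block, edgeR called 11 genes in bone, 5 in liver, 0 in lung, 7 for the mean and 3 for the difference. The labels do not say what a replicate number marks. Biotin positive liver replicate 2 entered with Kupffer-marked cells only. Without biotin positive liver replicate 1 the number was 236 in liver (100 higher and 136 lower), 23 for the mean and 36 for the difference. In lung, Nfkbia and Nr4a1 overlapped between the sorts: Nfkbia had 2140, 1414 and 1744 CPM in the biotin positive samples and 1823, 1523, 1379 and 1272 CPM in the biotin negative ones, and Nr4a1 had 1226, 1556 and 973 CPM against 1200, 1167, 1472 and 1164 CPM. The NF-kB and cytokine list as a sum did not overlap: it had 17996 to 24712 CPM in the 3 biotin positive lung samples and 7187 to 15078 CPM in the 4 biotin negative ones. In core cells the 1 biotin positive lung sample with enough cells had 13017 CPM, within the 6168 to 13819 CPM of the 4 biotin negative ones. Of its 22 tested genes 0 passed with edgeR, 20 were above 0 in the positive sort and 3 had an unadjusted p below 0.05, with a median log2 fold change of 0.459 against -0.0174 over all genes. The neutrophil list ran from 15968 to 112536 CPM in the same positive samples and from 3271 to 48272 CPM in the negative ones, and its part in these values was not tested. Brain could not be tested, with 2 or 3 selected cells in each positive sample, and at the minimum of 10 cells per sample core cells gave at most 1 positive sample in a tissue, and core cells were not compared between the sorts at a lower minimum.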

How the data were processed

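Single-cell RNA-seq of 32 intracardiac samples was used, and 1 pooled bone sample with 26666 barcodes was not analysed here. The files deposited by the authors hold UMI counts of 32285 genes in each cell, written by Cell Ranger 6.1.2 per the file headers. The submitters' processing notes name mm10 and Seurat without their roles, and the samples were demultiplexed by the authors per the labels. The labels gave the groups and the replicate numbers.

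Cells with at least 500 UMIs, 200 genes and at most 15% mitochondrial UMIs were kept, 55366 of 57065. No doublets were removed. Barcodes were compared between samples: 112 pairs of samples with the same replicate number shared 0, and 384 pairs with different numbers shared 341 barcodes.

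The selected cells, the gene lists (25 lists, 340 genes) and the tests were chosen with earlier results of these data known. Core cells were defined after the data had been seen, from 4 Kupffer and 14 neutrophil genes. Shares were compared by two-sided exact permutation tests of the difference of means, with Benjamini-Hochberg adjustment over 4 tissues. UMI counts were summed over the selected cells of each sample with at least 10 of them (23 samples, or 15 for core cells) and tested with edgeR 4.0.16 in R 4.3.3: TMM scaling, low counts filtered, quasi-likelihood test, Benjamini-Hochberg adjusted p below 0.05, with the 6 rule genes left out. Classical monocytes were summed likewise. Genes were named by a rule on size and on not overlapping between groups, by list, or because they passed in a fit. The rule did not ask that a call hold with each sample left out. DESeq2 1.42.0, other minimum cell numbers, other filters, a replicate block and leaving out each sample were tried. The edgeR steps were tested on simulated counts. For thinned detection each cell was reduced to 2000 UMIs at random and shallower cells were left out. Floors are 3 counts of the total.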

Additional observations from a re-analysis of the deposited data

Results flagged for a closer look

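Of 53 groups of 4 samples tested, 5 held a sample whose gap to the next exceeded Dixon's critical share of the range. About 1 group in 20 does so by chance. Biotin negative brain replicate 3 had a selected-cell share of 2.37%, against 0.770% to 0.962% in the other samples of its group. Biotin positive liver replicate 2 had 20.4%, against 0% to 3.11%, all of them Kupffer-marked cells. Biotin positive liver replicate 1 had a core-cell share of 2.78%, against 0% to 0.404%. Rel in core cells stood at 227 CPM in biotin negative brain replicate 3, against 122 to 128.2 CPM, and at 799 CPM in biotin negative lung replicate 1, against 258 to 276 CPM.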

How the results depend on the processing

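Shares. No share passed after adjustment under any setting. Of 100 values with another choice 88 kept their direction, and of 127 with a sample left out 120 did. Those that turned were lung positive minus negative with at least 2 markers (0.542 percentage points), brain against the other tissues thinned (-0.00127), without cells carrying lineage genes (-0.0909), without neutrophil-rich cells (-0.213) and in core cells (-0.177), and bone positive minus negative in the latter 3 settings (-0.0935, -0.0470 and -0.0498). Within monocytes, brain turned without neutrophil-rich cells and in core cells (-1.08 in both), and lung likewise (-1.04 and -1.22). With a sample left out, the ranges were -0.447 to 0.334 for bone positive minus negative, -0.544 to 0.0416 for lung, -0.188 to 4.12 for lung within monocytes, and -0.265 to 0.268 for brain against the other tissues.

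Numbers of genes passing, all selected cells. Without a filter on low counts they were 37, 238 and 61 for positive minus negative in bone, liver and lung, 38 for the mean, 159 for the difference between tissues, and 120, 132, 176 and 201 for bone, brain, liver and lung against the others. With a replicate block they were 11 in bone and 5 in liver for the sorts, 7 for the mean, 3 for the difference, and 2, 23 and 61 for bone, liver and lung; all 27 lung genes were among the 61. In core cells the block gave 8 in liver and 43 in lung. DESeq2 gave 0 in bone and 44 in lung, 24 of them shared, and 0 in core liver. At least 20 cells per sample gave 1 in liver and 11 in lung (2 higher, 9 lower), and at least 5 cells gave 4 in lung. Only the groups of the contrast, or no Kupffer-marked cells, gave 0 in liver. Without neutrophil-rich cells bone had 0 and lung 7, and in core cells bone had 0, liver 1 and lung 15. With a sample left out the numbers ran 0 to 3 in bone, 0 to 30 in brain, 0 to 45 in liver, 0 to 57 in lung (57 without brain replicate 2, 23 higher and 34 lower), 0 to 236 for the sorts in liver (236 without biotin positive liver replicate 1), 0 to 23 for the mean and 0 to 36 for the difference, and in core cells 0 to 2 in bone, 0 to 9 in liver and 0 to 29 in lung. Lcn2 in lung turned without neutrophil-rich cells (0.49) and in core cells (0.44). The cause of these shifts was not tested.

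The labels do not say that a number marks a shared animal or pool. Deviations of same-numbered samples had a median correlation of 0.0973 over 56 pairs, against -0.0322 over 169 others, and 21 of 23 samples correlated best with their own number, a hint from the data only. DESeq2 was not run for the difference between tissues, and stricter marker or lineage settings left too few samples for several contrasts. With 10 to 63 cells in most samples, genes below the filter could not be judged.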

Other observations

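Of the MHC class I, interferon-stimulated, Fc receptor, and adhesion and crawling lists, edgeR called 0 members in core cells of any tissue against the others, with 0 to 3 of each list at an unadjusted p below 0.05. Of the 14 tested genes of the classical monocyte list 1 rose in lung, the receptor Clec4e (0.784% of all 1786 genes rose there), with 4 at an unadjusted p below 0.05. Of the 14 tested macrophage differentiation genes 0 passed with edgeR, with 5 in liver and 4 in lung at an unadjusted p below 0.05, as were 152 and 169 of all 1786 genes. Of the 7 tested MHC class I genes, which present antigen to CD8+ T cells, 5 were above 0 in lung with a median log2 fold change of 0.109. The 5 tested interferon-stimulated genes had medians of 0.365 in liver, with all 5 above 0, and -0.207 in brain, with 0 above 0. The 4 tested Fc receptor genes, which bind antibody, had a median of 0.314 in bone with all 4 above 0, and -0.338 in lung with 0 above 0. The adhesion and crawling list, 21 genes tested, had a median of 0.185 in lung, with 18 above 0. The medians over all genes tested lay between -0.0149 and 0.0131.

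The cells left out because they had Vcan, 121 with at least 3 of the 5 markers, had a median of 8205 UMIs per cell, and the selected cells with 3, 4 and 5 markers had medians of 6577, 5047 and 4799 UMIs.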
